A study of Mus musculus with 5 samples.

Results

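The transcripts described here come from genes named for proteins of the mitochondrial ribosome, and the name alone set the subunit. They were chosen by name: every probe set with a single gene symbol made of Mrpl or Mrps, a number and an optional letter was taken, and Mrpl genes (large subunit) were kept apart from Mrps genes (small subunit). This gave 156 of the 45101 probe sets, 104 for the large and 52 for the small subunit. They measured 76 of the 18193 genes on the array that had a probe set of a single symbol, 47 of the large and 29 of the small subunit. Another 4 probe sets paired Mrpl30, Mrps34 or Mrpl53 with a second gene and were left out.

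The RNA came from whole ovaries of newborn female mice at postnatal day 0.5, on a hybrid C57/BL6/129SVEV background. The Lhx8 null group had 3 arrays (replicates 1, 2 and 3) and the wild type group had 2 (replicates 2 and 3). Each array carried biotin-labelled target from 1 pool of 50 ovaries, so an array stands for at least 25 animals. Lhx8, the deleted gene, codes for a homeodomain factor that oocytes express, and the question was how the ovary's transcripts change without it. The labels name no Cre or transgene.

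Mitochondria keep a small genome of their own, and its messages are translated inside the organelle by a dedicated ribosome. All protein parts of that ribosome are encoded in the nucleus, made in the cytosol and imported, while its RNAs come from the mitochondrial genome. The large subunit joins amino acids and feeds the new chain into the inner membrane, and the small subunit reads the message. The products are core subunits of the respiratory chain and of ATP synthase. Oocytes are rich in mitochondria, and inherited variants in several of these genes are known in ovarian insufficiency.

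Levels are deposited array signals on a linear scale. Fold changes are null minus wild type on a quantile-normalised log2(signal + 16) scale and are given with standard errors (SE). Each gene was read from its brightest probe set. A gene was called where limma's adjusted p, Benjamini-Hochberg over all 10916 genes bright enough to test, was under 0.05. All 76 ribosomal genes passed the filter on brightness, which left out the dimmest 40% of genes, those below a log2 value of 7.37 (a signal of 149.96). Levels of different genes are not compared, since probe sets differ in their response.

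Lhx8 itself had signals of 332.6, 159 and 347.4 on null arrays 1, 2 and 3 and of 6450.1 and 5223.1 on wild type arrays 2 and 3. The fold change was -4.45 (SE 0.29, adjusted p = 1.08e-05), so the targeted gene matched the labels. Of all genes tested, 25.6% were called higher and 22.3% lower in the null ovaries, 47.8% in all. On the normalised scale the groups did not overlap in 67.8%: in 36.0% every null array lay above both wild type arrays, in 31.8% every null array lay below them, and the median fold change was 0.04. Markers of other cells moved too. All 9 oocyte markers were called lower, with summed signals of 7355.4 to 10397 on null arrays and 68477.2 to 70765.1 on wild type arrays. The summed signals of 7 granulosa markers were 10599.2 to 11336.8 against 19593.5 to 21164, and all 6 of those tested were lower. In the other direction, 6 markers of stroma and smooth muscle summed to 56100.2 to 65651.2 against 16184.1 to 19490.8, and all 6 were higher. The 5 macrophage markers summed to 7518.9 to 8832.5 against 1958.9 to 1987.9 (4 called higher), and the 4 endothelial markers to 3042.2 to 3218 against 1438 to 1694.5 (3 higher). For 3 red blood cell markers the sums were 842.8 to 3202 against 614.7 to 703.8 (1 of 2 tested called higher). All 5 markers of oviduct and mesonephric epithelium were higher, at 9592.5 to 11890.9 against 442.1 to 512. The part of these cells in the values below was not tested, and in bulk tissue fewer cells of a type cannot be told apart from less RNA per cell.

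Transcripts of the mitochondrial ribosome that passed the test were, but for 1, lower in the null ovaries, and most genes did not pass. In the large subunit 18 of 47 genes (38.3%) were called lower, against 22.3% of all genes, and 1 (2.13%) was called higher, against 25.6%. In the small subunit 9 of 29 (31.0%) were lower and 0 were higher. The other 28 large and 20 small subunit genes did not pass. With the probe sets of a gene averaged, 13 large and 9 small subunit genes were lower, against 21.1% of all genes. Without wild type replicate 3 the counts of lower genes were 9 and 6, against 14.1% of all genes. The median fold change was -0.30 in the large subunit and -0.23 in the small subunit, beside 0.04 over all genes. Fold changes ran from -1.17 to 0.47 in the large and from -1.29 to 0.38 in the small subunit, and 57 of the 76 were below 0. Only 4 genes, Mrps22, Mrpl32, Mrpl55 and Mrpl1, were lower by 2-fold or more. On the normalised scale every null array lay below both wild type arrays in 42 of the 76 genes and above them in 10, and the groups overlapped in 24. On the deposited signals these counts were 47, 8 and 21, but the matching shares over all genes were not taken on that scale. Over all genes tested, on the normalised scale, every null array lay below in 31.8% and above in 36.0%, so 67.8% did not overlap. The standard error of a gene had a median of 0.14 and ran from 0.10 to 0.35.

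**Figure D1:**
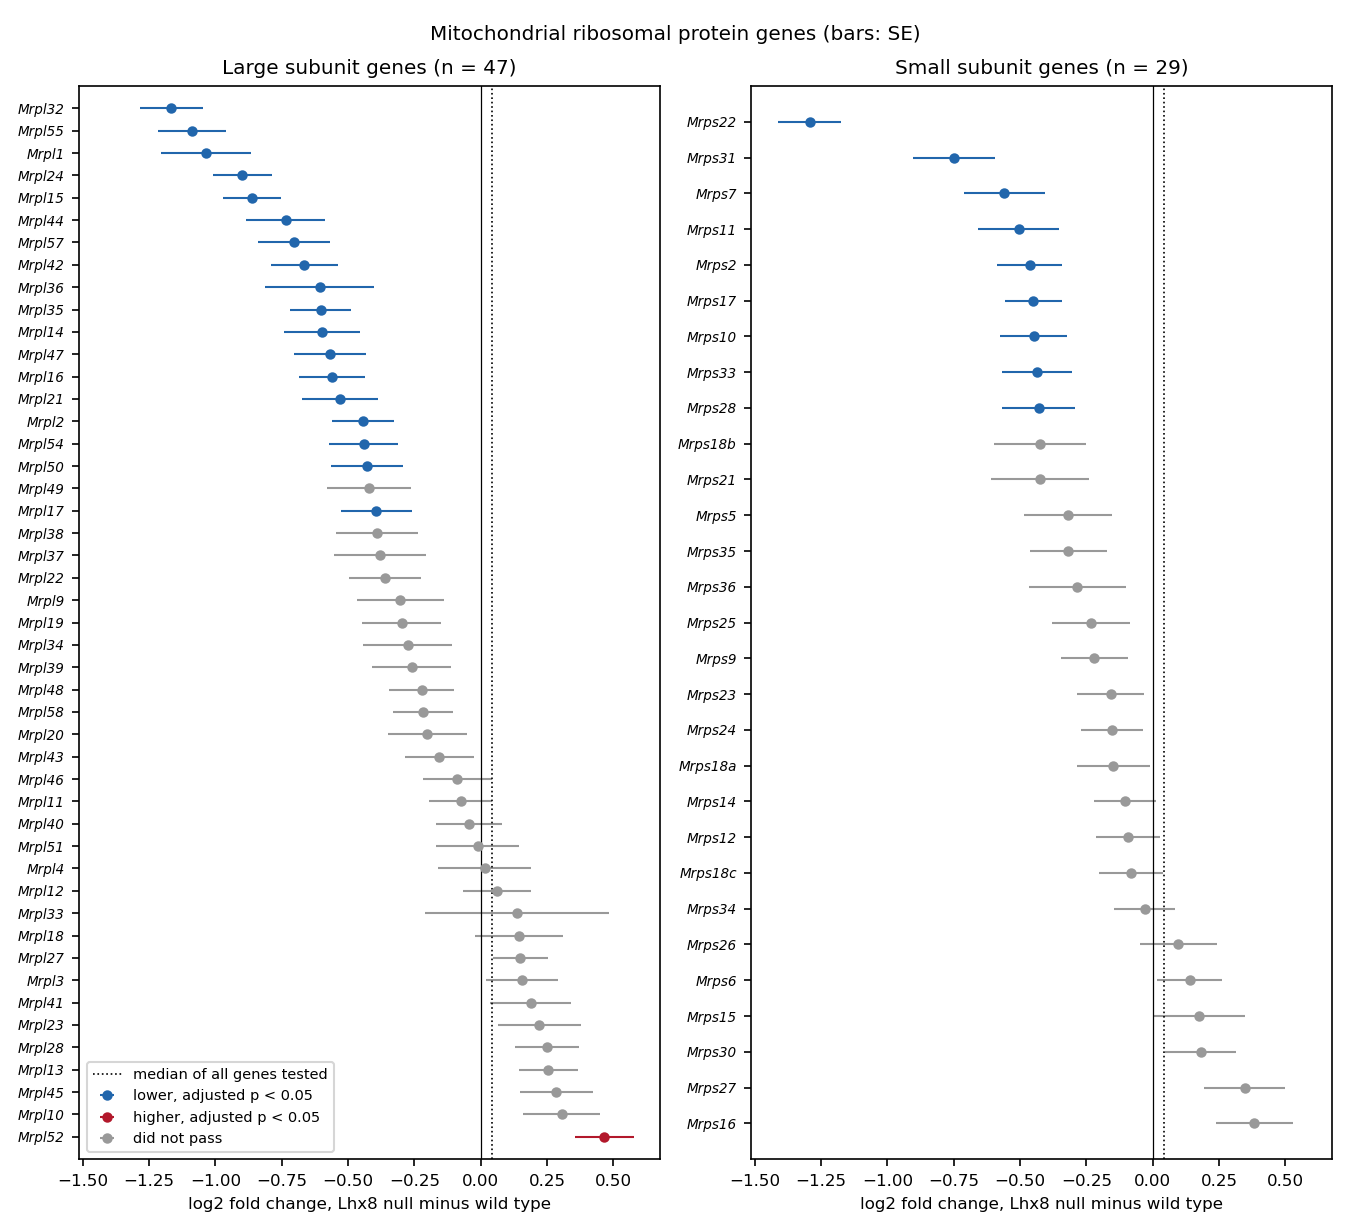
Fold change of each gene of the large (47 genes, left) and small (29 genes, right) subunit of the mitochondrial ribosome. The x axis is the log2 fold change, Lhx8 null minus wild type, the bars are 1 standard error, colours give the call at an adjusted p under 0.05, and the dotted line is the median of all genes tested (0.04). Most points lie left of that line, Mrps22 and Mrpl32 lie farthest left, and Mrpl52 is the 1 gene called higher.

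The same difference was seen array by array. Relative to the wild type mean of each gene, the median over the large subunit was -0.29, -0.33 and -0.38 on null arrays 1, 2 and 3, and -0.02 and 0.02 on the wild type arrays. Over the small subunit it was -0.14, -0.22 and -0.27 on the null arrays. Over all genes tested it was 0.03, 0.06 and 0.04. No null array thus reached the wild type median of either subunit. Of the signs of RNA integrity and of spike-in level, some differed between the groups. Actb read 3′ over 5′ at 1.48 to 1.69 on null and 1.39 to 1.43 on wild type arrays, while Gapdh read 0.658 to 0.802 and 0.625 to 0.666, with overlap. The BioC spike-in stood at log2 11.22 to 11.48 against 10.03 to 10.40. Their part in the result was not tested.

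The counts depended on how the arrays were scaled. With each array centred on its median instead of quantile normalised, the median of all genes moved from 0.04 to -0.18, and 30 large and 22 small subunit genes were called lower with 0 higher. Of all genes 31.3% were then called lower and 15.8% higher, against 22.3% and 25.6% after quantile normalization. The share of all calls that were higher moved from 53.5% to 33.5%. Relative to the median of all genes, the large subunit stood at -0.34 after quantile normalization and at -0.41 after centring, and the small subunit at -0.28 and -0.36. With the deposited scaling kept, these distances were also -0.41 and -0.36.

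Mrps22 fell furthest. It encodes a small subunit protein with no counterpart in bacterial ribosomes, and variants in its human counterpart are known in ovarian insufficiency. Its signals were 1545.2, 1626.4 and 1692.5 on the null arrays, against 3823 and 4399.7 in the wild type. All null arrays lay close together, far below either wild type array. Mean signals were 1621 ± 73.8 (SD, n = 3) in the null and 4111 ± 408 (SD, n = 2) in the wild type, a fold change of -1.29 (SE 0.12, 2.45-fold lower, limma adjusted p = 5.69e-05). The call held in all 15 alternative settings.

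Mrpl32 had the deepest fall of the large subunit. Its protein is imported as a precursor and trimmed by the m-AAA protease of the inner membrane before it joins the ribosome. Signals were 1769.8, 1946.3 and 1850.1 on the null arrays, against 3948.7 and 4619.7 in the wild type. The groups stood well apart, with means of 1855 ± 88.4 (SD, n = 3) and 4284 ± 474 (SD, n = 2). The fold change was -1.17 (SE 0.12, 2.24-fold lower, limma adjusted p = 9.72e-05).

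Promoters are shown for these deepest falls of each subunit and for Mrpl52, the only called rise, which were picked after their values were seen. Each sequence, from RefSeq on GRCm38.p6, runs 5′ to 3′ on the gene's strand over 270 bases, with 250 before and 20 from the annotated start onward. Capitals mark matches, on either strand, to motif letters of regulators known at promoters of nuclear genes for mitochondrial proteins: CCGGAAGT (the ETS family, which includes the GABP factor), GCGC and TGCGC with any 1 base between them (NRF1), and AAGATGGC (YY1).

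Mrps22, chr9:98601660-98601929, minus strand: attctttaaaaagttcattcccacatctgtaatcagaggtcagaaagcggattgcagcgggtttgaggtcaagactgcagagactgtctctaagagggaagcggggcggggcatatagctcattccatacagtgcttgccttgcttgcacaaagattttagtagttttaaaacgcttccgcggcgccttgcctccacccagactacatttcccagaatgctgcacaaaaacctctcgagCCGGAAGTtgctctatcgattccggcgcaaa

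Mrpl32, chr13:14613018-14613287, minus strand: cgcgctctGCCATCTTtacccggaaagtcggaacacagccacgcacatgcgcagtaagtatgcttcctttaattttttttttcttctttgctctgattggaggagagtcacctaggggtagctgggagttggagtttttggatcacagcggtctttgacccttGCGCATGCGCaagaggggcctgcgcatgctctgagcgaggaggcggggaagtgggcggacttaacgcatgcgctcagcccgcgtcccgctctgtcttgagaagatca

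Mrpl52, chr14:54426659-54426928, plus strand: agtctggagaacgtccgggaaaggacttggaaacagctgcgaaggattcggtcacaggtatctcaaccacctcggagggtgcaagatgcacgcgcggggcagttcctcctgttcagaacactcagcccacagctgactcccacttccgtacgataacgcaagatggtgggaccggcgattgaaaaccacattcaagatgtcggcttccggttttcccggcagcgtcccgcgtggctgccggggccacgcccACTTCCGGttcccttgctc

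The Mrps22 window held 1 ETS match just before the start. The Mrpl32 window held an NRF1 match and, farther out, a YY1 match on the opposite strand. It also held the letters TGATTG, searched below and left in small letters. The Mrpl52 window held 1 ETS match, on the opposite strand and within the first transcribed bases. Over the group, 67 of the 76 genes had an entry, with 73 promoters of 300 bases (250 before and 50 from the start onward) to set beside 32851 promoters in all. NRF1 letters were in 12 of the 73 (16.44%) against 4.6% of all promoters, ETS letters in 12 (16.44%) against 3.89%, and YY1 letters in 12 (16.44%) against 2.75%. The median GC content was 58.67% in these promoters and 52.67% in all. Genes called lower had 26 of the promoters: NRF1 letters stood in 5 of them against 7 of the 47 of the other genes, YY1 letters in 6 against 6, and ETS letters in 1 against 11. Letters bound by homeodomain factors were searched as well. TAATTA was in 2 of the 73 (2.74% against 5.29% of all), TAATTG, known for NOBOX, in 7 (9.59% against 8.0%), and TGATTG, used here for LHX8, in 15 (20.55% against 14.04%). The E-box CANNTG was in 47 (64.38% against 72.31%). Genes called lower held TGATTG in 7 of their 26 promoters, against 8 of the 47 of the other genes. For TAATTA this was 2 against 0, for TAATTG 1 against 6 and for CANNTG 18 against 29. These differences were not tested. TAATTA and CANNTG read the same on both strands, and matches of different motifs can share bases. Promoters of 1 gene can overlap, so 1 site can be counted more than once. The TGATTG site of Mrpl2, a gene called lower, was, so the 7 promoters stand for fewer genes. A match describes letters only.

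The next falls of the large subunit were in Mrpl55 and Mrpl1. Mrpl55 encodes a protein counted here among those with a counterpart in bacterial ribosomes. Its signals were 995.5, 904.6 and 919.4 on the null arrays, against 1987.4 and 2194.7 in the wild type, with no overlap. The fold change was -1.09 (SE 0.13, 2.12-fold lower, limma adjusted p = 0.000201). Mrpl1 encodes the protein of the mobile stalk beside the site where spent tRNA leaves. Its signals were 370.3, 397.5 and 386 on the null arrays, against 708.2 and 897.4 in the wild type. The groups did not overlap, and the fold change was -1.04 (SE 0.17, adjusted p = 0.00114). A second bright probe set of Mrpl1 gave 394.3, 479.9 and 475.4 against 542.1 and 513.6, again without overlap but a smaller fold change of -0.26. Without wild type replicate 3 that second probe set was the brighter one, and the call was lost at -0.28 (adjusted p = 0.397). It was also lost with the gene's probe sets averaged (-0.34, adjusted p = 0.181).

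Proteins of the exit tunnel and of the conserved core followed. Mrpl24, which lines the exit of the tunnel for the new chain, had signals of 3222.5, 3152.2 and 3322.7 on the null arrays against 5651.9 and 6493.7 in the wild type. The null arrays were within a narrow band, and the fold change was -0.90 (SE 0.11, limma adjusted p = 0.000248). Mrpl15, a conserved protein of the subunit's core, had 1895.3, 1946 and 1951.8 against 3567.3 and 3684.7, and fell by 0.86 (SE 0.11, adjusted p = 0.000295). Its groups did not overlap either. Leaving out wild type replicate 2 or replicate 3 made another of its probe sets the brightest, and the fold change was then -0.47 or -0.49, still called (adjusted p of 0.0443 and 0.0415). With all its probe sets averaged, dim ones included, it was -0.32 and the call was lost (adjusted p = 0.143).

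Other members past the threshold changed less. Mrpl44, an RNase III-like protein at the surface of the subunit, had signals of 1754.9, 1408.5 and 1584.4 on the null arrays against 2478.1 and 3073.2. The highest null array lay below the lower wild type array, and the fold change was -0.73 (SE 0.15, limma adjusted p = 0.00354). Mrpl57, formerly Mrp63, had 1957.4, 1963.3 and 2092.2 against 3777.7 and 2980.5 (-0.70, SE 0.14), and Mrpl42 had 2895.6, 3413.7 and 3540.7 against 4845 and 5685.4 (-0.67, SE 0.13). Mrpl35, at 2135.6, 2000.2 and 1998.7 against 3125.4 and 3326.7, fell by 0.60 (SE 0.11), and Mrpl16, which lies near the catalytic center, by 0.56 (SE 0.12). For all of these the groups stood apart. Mrpl36, Mrpl14, Mrpl47, Mrpl21, Mrpl2, Mrpl54, Mrpl50 and Mrpl17 completed the 18, with fold changes from -0.61 (Mrpl36) to -0.39 (Mrpl17). Each of these last 8 lost its call when at least 1 array was left out. Without wild type replicate 3 the adjusted p was 0.0812 for Mrpl14, 0.12 for Mrpl21 and 0.0747 for Mrpl47, and the other 5 (Mrpl36, Mrpl2, Mrpl54, Mrpl50 and Mrpl17) lost it without that array and without 1 or more others, reaching an adjusted p of 0.162 for Mrpl36, 0.0617 for Mrpl2, 0.0934 for Mrpl54, 0.185 for Mrpl50 and 0.152 for Mrpl17. The other arrays were wild type replicate 2 for Mrpl36, Mrpl2, Mrpl54 and Mrpl17, null replicate 2 for Mrpl54, Mrpl50 and Mrpl17, and null replicate 3 for Mrpl2, Mrpl50 and Mrpl17. Averaging probe sets ended the calls of Mrpl21 (-0.51), Mrpl47 (-0.57), Mrpl50 (-0.23) and Mrpl54 (-0.20). A fit without a variance trend ended those of Mrpl36 (adjusted p = 0.0529) and Mrpl17 (adjusted p = 0.0677), and no filter on brightness that of Mrpl36 (adjusted p = 0.0579).

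Mrpl52 went the other way. It encodes a large subunit protein absent from bacterial ribosomes. Its signals were 4766.6, 4399.5 and 4527.7 on the null arrays, against 3346.8 and 3423.8 in the wild type. Every null array was above both wild type arrays, with means of 4565 ± 186 (SD, n = 3) and 3385 ± 54.4 (SD, n = 2). The fold change was 0.47 (SE 0.11, 1.38-fold higher, limma adjusted p = 0.00749). A pair of further bright probe sets of the gene read 2856.1, 2968.9 and 2561.1 against 1867.5 and 1816.2, and 3131.6, 2823 and 2978.6 against 1919 and 2108.9. They too did not overlap, with fold changes of 0.66 and 0.62. After median centring the fold change was 0.18 and the call was lost (adjusted p = 0.279).

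The other highest values of the large subunit did not pass. Mrpl10, at the base of the stalk that recruits translation factors, had 1475.7, 1339.1 and 1313.3 on the null arrays against 1300.5 and 1029.2 (0.30, SE 0.15, limma adjusted p = 0.114). Mrpl45, which docks the ribosome to the inner membrane, had 1191.7, 1264.3 and 1212.4 against 1132.9 and 937.3 (0.29, SE 0.14, adjusted p = 0.117). In both, the null arrays lay just above the wild type arrays. Mrpl13 had 3764.6, 4406 and 4454.9 against 3604.7 and 3541.2 (0.26, SE 0.11, adjusted p = 0.0837), and Mrpl28 had 1661, 1870.1 and 1786.7 against 1582.6 and 1544.2 (0.25, SE 0.12, adjusted p = 0.122). The null arrays were above in these as well. Mrpl33 was the least precise gene, with 1003, 2029.5 and 2634 on the null arrays, against 1401.9 and 1936.6 in the wild type (0.14, SE 0.35). Its groups overlapped, with null replicate 1 the lowest of all 5 arrays.

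**Figure D2:**
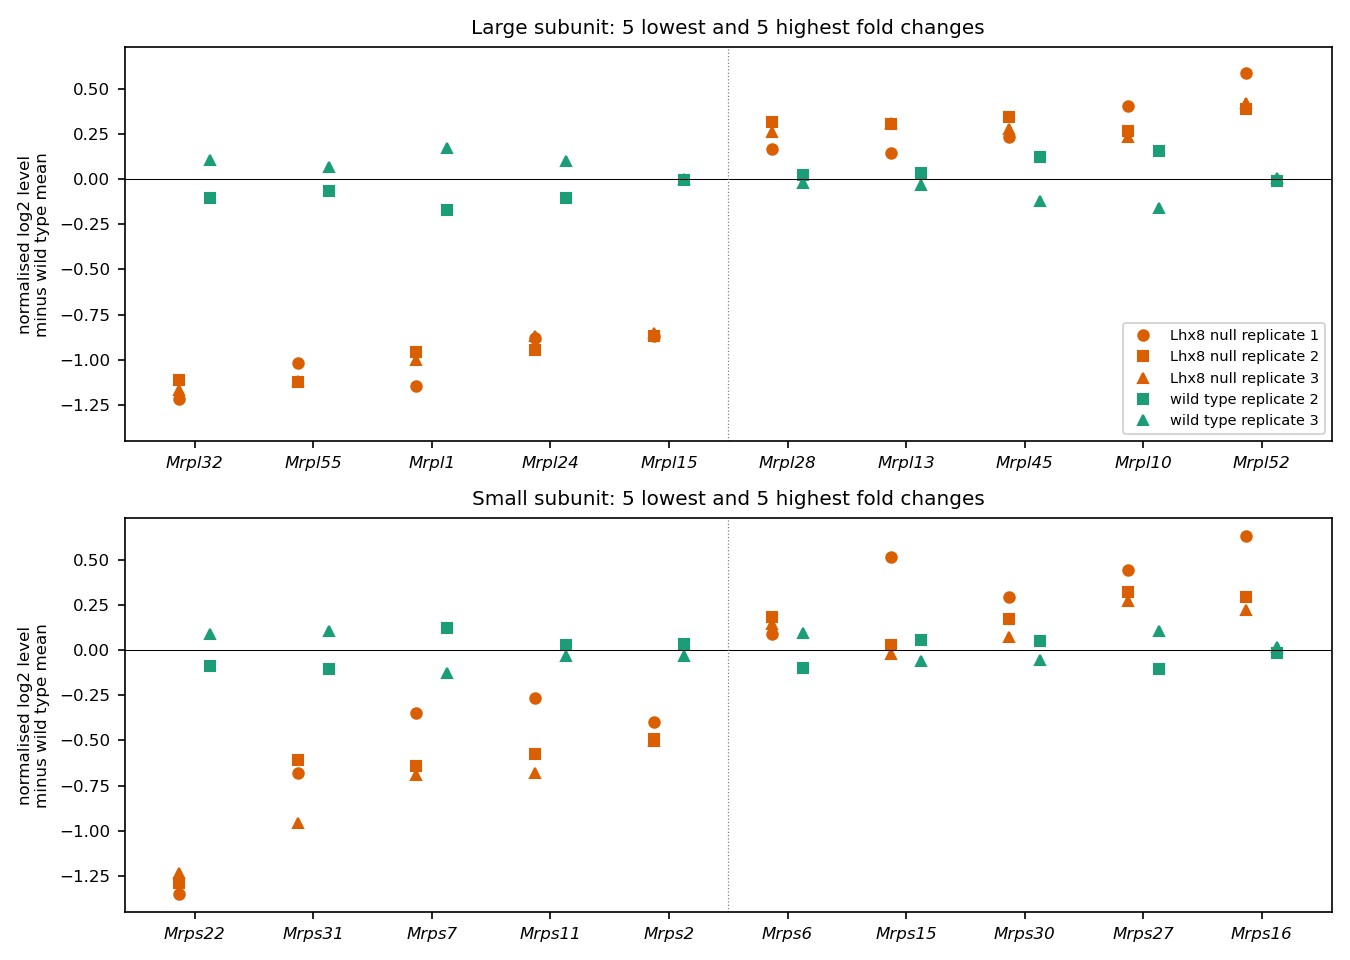
Levels on each array for the 5 genes with the lowest and the 5 with the highest fold change of the large (top) and small (bottom) subunit. The y axis is the normalised log2 level minus the wild type mean of that gene, and each point is 1 array, marked by group and replicate. Null arrays of Mrpl32, Mrps22 and the other lowest genes lie together below the wild type arrays, while Mrpl52 has all 3 null arrays above both wild type arrays.

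In the small subunit, Mrps31, which has no bacterial counterpart, had signals of 967.1, 997 and 786.8 on the null arrays, against 1494.4 and 1737.2 in the wild type. The groups did not overlap, with means of 917 ± 114 (SD, n = 3) and 1616 ± 172 (SD, n = 2). The fold change was -0.75 (SE 0.16, limma adjusted p = 0.00393). Mrps7, a conserved protein that helps nucleate the head of the subunit, had 1525.7, 1246.1 and 1207.9 against 2219.6 and 1878.9 (-0.56, SE 0.15, adjusted p = 0.0149). Null replicate 1 was the nearest to the wild type arrays in this gene. Without wild type replicate 2 the call was lost (-0.43, adjusted p = 0.118).

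Mrps11 and Mrps2, both with counterparts in bacteria, were also lower. Signals of Mrps11 were 1435.6, 1161.2 and 1076.9 on the null arrays against 1855.8 and 1780.4 (-0.50, SE 0.15, limma adjusted p = 0.0235). Those of Mrps2 were 1388.4, 1300.5 and 1295.4 against 1969.1 and 1885.7 (-0.46, SE 0.12, adjusted p = 0.0127). Neither gene had a null array as high as a wild type array. Mrps17, a conserved RNA-binding protein, had 2884.8, 3170.6 and 3175.5 against 4243.8 and 4343.4, and fell by 0.45 (SE 0.11, adjusted p = 0.00733). Mrps10, Mrps33 and Mrps28 fell by 0.45, 0.44 and 0.43. With the probe sets of a gene averaged, Mrps10, whose other probe set is dim, turned to 0.22 (adjusted p = 0.606), and Mrps11 stood at -0.34 and lost its call (adjusted p = 0.415). The calls of Mrps22, Mrps31 and Mrps17 held with every array left out in turn. The other 6 were lost in at least 1 case, with the highest adjusted p at 0.114 for Mrps11 and 0.0669 for Mrps2 (both without wild type replicate 2). For Mrps10 it was 0.0993 (without wild type replicate 2), for Mrps33 0.176 and for Mrps28 0.214 (both without wild type replicate 3). Mrps11 lost its call with any array but null replicate 1 left out, Mrps2 and Mrps28 also without null replicate 2, and Mrps10 and Mrps28 also without null replicate 3.

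The highest small subunit genes did not pass. Mrps16, a conserved protein known from mitochondrial disease, had 3081.5, 2499.8 and 2365.2 on the null arrays against 2064 and 2119.6 (0.38, SE 0.15, limma adjusted p = 0.0559). All null arrays were above both wild type arrays, and leaving out null replicate 3 brought the gene past the threshold (0.46, adjusted p = 0.0462). Mrps27, a pentatricopeptide repeat protein, had 676.8, 606.6 and 589.3 against 453 and 512.8 (0.35, SE 0.15, adjusted p = 0.0929). The groups did not overlap there. Mrps30, whose protein sits in the large subunit despite its name, had 1341.4, 1235.9 and 1152.3 against 1184.8 and 1087.8 (0.18, SE 0.13, adjusted p = 0.296). Mrps15 (2422.5, 1750.2 and 1684.4 against 1864.3 and 1724.7) and Mrps6 (2006.1, 2163.7 and 2117 against 1861.4 and 2127.3) overlapped between groups. Among genes that did not pass, 15 had every null array below both wild type arrays on the normalised scale and 9 had every null array above them. Over all genes tested 67.8% did not overlap while 47.8% were called, so groups apart without a call were common.

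A gene's place in the ribosome, grouped after the values were seen, is given as a description. Of the 29 large subunit genes with a counterpart in bacterial ribosomes 13 were lower (median -0.30), and of the 18 without one 5 were lower and 1 higher (median -0.24). Among genes named for the small subunit 6 of 18 with a counterpart (median -0.27) and 3 of 11 without one (median -0.23) were lower. These counts follow the names and not each protein's place, so they include, as 1 example, Mrps30, whose protein sits in the large subunit. At the tunnel exit Mrpl24, Mrpl47 and Mrpl17 were lower, 3 of the 6 genes grouped there. Around the catalytic center Mrpl2 and Mrpl16 were lower, and Mrpl3, Mrpl4 and Mrpl27 did not pass. None of Mrpl10, Mrpl11 and Mrpl12, the stalk and its base, passed (0.30, -0.08 and 0.06). Of 6 genes grouped here under the central protuberance (Mrpl18, Mrpl38, Mrpl40, Mrpl46, Mrpl48 and Mrpl58) none passed, with a median of -0.15. These groupings need not hold every protein of a region. Differences between these groups were not tested.

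Of the members known from ovarian insufficiency, Mrps22 and Mrps7 are described above. The third, Mrpl50, had signals of 938.3, 885.4 and 935.5 on the null arrays, against 1187 and 1396.6 in the wild type. The groups did not overlap, and the fold change was -0.43 (SE 0.14, 1.35-fold lower, limma adjusted p = 0.0286). Without wild type replicate 3 it was -0.31 (adjusted p = 0.185), and a second bright probe set gave -0.03. These 3 were the only genes called among 9 tested from a list of mitochondrial genes known from ovarian disease, with 0 higher and a list median of -0.26. They are ribosomal members themselves, so the list adds no separate evidence.

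Further probe sets of the same genes gave a partial check. Of the 76 genes 34 had 1 probe set and 42 had several, and in 26 more than 1 was over the brightness filter. In 18 of the 26 all bright probe sets had the same sign. They differed in sign in 8 (Mrpl11, Mrpl15, Mrpl27, Mrpl3, Mrpl41, Mrpl49, Mrps15 and Mrps6), of which Mrpl15 was the only one called. Mrpl15 had bright probe sets at -0.89, -0.86, -0.75, -0.48 and 0.31, the last of them dimmer, with signals of 577.9, 755.9 and 625.2 on the null arrays against 464.6 and 572.4. All 4 bright probe sets of Mrpl44 were negative, at -1.56, -1.06, -0.73 and -0.65, and the steepest read 280.9, 277.3 and 326 against 898.8 and 851.6. The second probe set of Mrps2, at 302.7, 330.1 and 328.6 against 531.9 and 625.7, gave -0.87. With every single-symbol probe set tested on its own and no filter, 38 of the 156 (24.4%) were lower, against 12.9% of all, and 4 (2.56%) were higher, against 11.9%. Of the 42 below the filter 3 were lower and 0 higher.

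**Figure D3:**
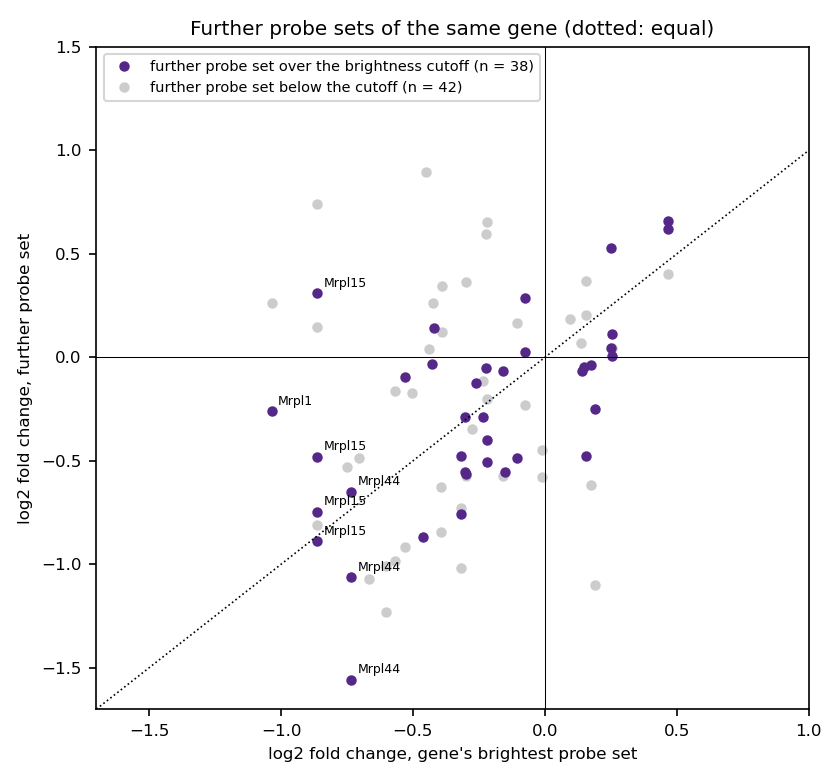
Fold change of each further probe set (y axis, log2, null minus wild type) against that of the brightest probe set of the same gene (x axis). Points are probe sets over (38) or below (42) the brightness filter, and the dotted line marks equal values. Bright further probe sets mostly lie on the same side of 0 as the brightest one, and dim ones scatter widely.

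Genes that build and serve the mitochondrial ribosome were read beside it, from lists chosen from general knowledge. Of 25 assembly factors 8 (32%) were lower and 0 higher, with a median of -0.31. Mterf4, which brings an rRNA methyltransferase to the large subunit, fell by 0.99 (SE 0.15, limma adjusted p = 0.000697). Tfb1m, which methylates the small subunit's RNA, fell by 0.91 (adjusted p = 0.00424). Grsf1, an RNA-binding protein of mitochondrial RNA granules, fell by 1.07 (adjusted p = 0.00575). Without wild type replicate 3 only 1 of the 25 was lower, and Grsf1 and Tfb1m then had adjusted p of 0.0547 and 0.0541. Of 4 tested ribosomal proteins that carry other names, Gadd45gip1, a large subunit protein, was lower (-0.42, adjusted p = 0.0476), and Dap3 stood at -0.09. That call of Gadd45gip1 was lost in several settings, with an adjusted p of 0.288 without wild type replicate 2 and of 0.129 and 0.118 without null replicates 2 and 3.

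Factors that use the ribosome were mixed. Of 11 translation factors 2 were lower, the elongation factor Gfm1 (-0.79, limma adjusted p = 0.00445) and the recycling factor Gfm2 (-1.03, adjusted p = 0.0019), and 1 was higher, Oxa1l, which inserts new chains into the inner membrane (0.43, adjusted p = 0.0428). The call of Oxa1l was lost with any of null replicates 2 and 3 or either wild type array left out (adjusted p up to 0.229) and after median centring (0.14). The call of Gfm1 was lost when its probe sets were averaged (-0.36, adjusted p = 0.106). Of 14 mitochondrial tRNA synthetases 4 were lower and 0 higher, among them Nars2 (-0.91), Fars2 (-0.80) and Rars2 (-0.56), which load asparagine, phenylalanine and arginine. Of 12 genes for transcription and upkeep of the mitochondrial genome, Mgme1, a nuclease, and Lrpprc, which stabilises its messages, were lower (-0.79 and -0.54), and the topoisomerase Top1mt was higher (0.61, adjusted p = 0.0234). Top1mt lost its call with any of null replicates 2 and 3 and either wild type array left out, up to an adjusted p of 0.0991, and Lrpprc without wild type replicate 2 (0.057). Mgme1 lost its call when its probe sets were averaged (-0.38, adjusted p = 0.218).

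Known regulators of nuclear genes for mitochondrial proteins went both ways. Gabpb1, a subunit of the GABP factor, had a fold change of -2.27 (limma adjusted p = 1.8e-05) on its brightest probe set. With either wild type array left out its other probe set was the brighter one and gave 0.24 or -0.12 (adjusted p of 0.376 and 0.667), so the probe sets of this gene disagree. Nrf1 fell by 0.63 (adjusted p = 0.0103), though not past the threshold without wild type replicate 3 (adjusted p = 0.0906) or with its probe sets averaged (-0.27, adjusted p = 0.263). Myc rose by 1.15 (adjusted p = 0.000715), and Ppargc1b, a coactivator of mitochondrial biogenesis, by 0.93 (adjusted p = 0.0086), the latter lost without wild type replicate 3 (0.0715).

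Proteins that mark the amount of mitochondria were set beside the ribosome. Of 15 such genes 7 (46.7%) were lower and 1 (6.67%) higher, with a median of -0.16. Vdac3, an outer membrane channel, fell by 0.82, the import receptor Tomm22 by 0.61 and the cristae protein Immt by 0.60 (limma adjusted p of 0.000262, 0.00259 and 0.0034). Tomm40, the import pore, rose by 0.55 (adjusted p = 0.00727), a call lost after median centring (0.26) and without wild type replicate 3 (adjusted p = 0.0521). Of 75 subunits of the respiratory chain and ATP synthase 25 (33.3%) were lower and 8 (10.7%) higher. Their median was -0.09, which turned to 0.02 with the deposited scaling (14 higher and 19 lower), and without wild type replicate 3 the counts were 5 higher and 11 lower. The cytosolic ribosome differed from the mitochondrial one in its counts: of 42 genes 1 (2.38%) was lower and 5 (11.9%) were higher, with a median of 0.04. With the deposited scaling kept, 36 of those 42 were called higher and the median was 0.49, so the counts of these bright genes rest on the scaling. The mitochondrial ribosomal medians kept their sign under both other scalings (-0.35 and -0.59 in the large, -0.30 and -0.54 in the small subunit). Differences between the lists were not tested.

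**Figure D4:**
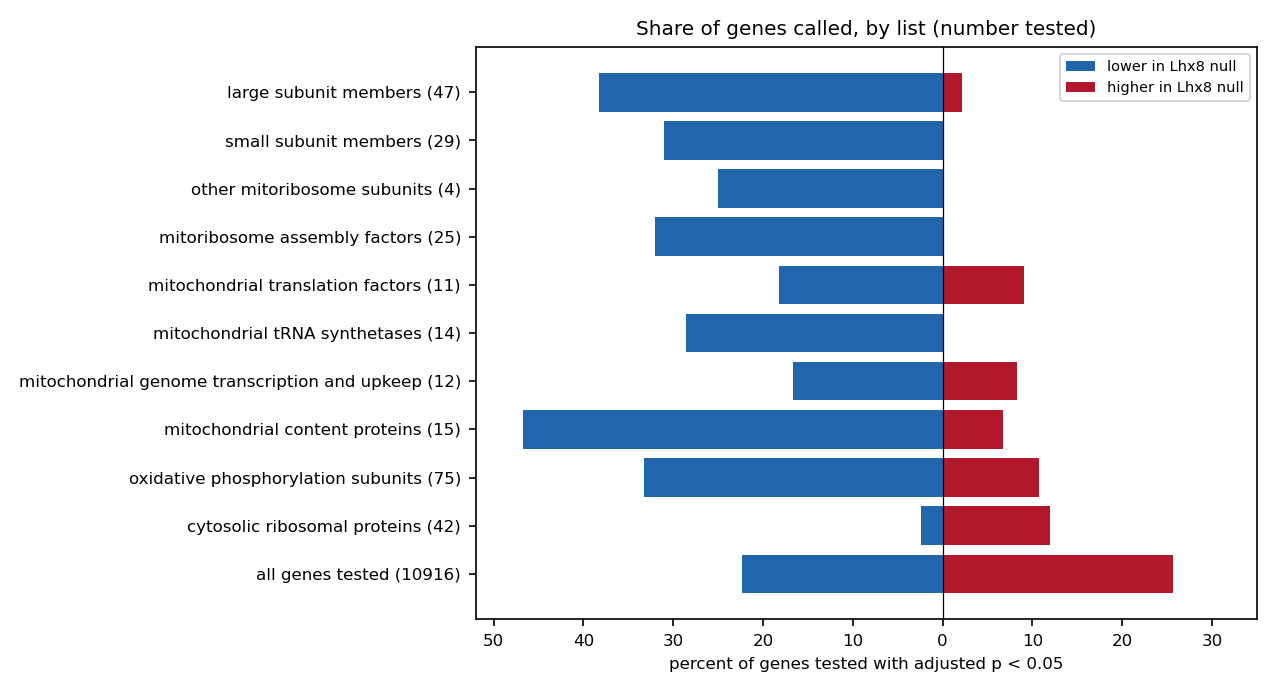
Percent of tested genes called lower (left of 0) or higher (right of 0) in the Lhx8 null ovaries at an adjusted p under 0.05, for each list of genes and for all genes tested, with the number tested in parentheses. Both subunits of the mitochondrial ribosome have long bars to the left (38.3% and 31.0%) and short or no bars to the right (2.13% and 0).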

How the data were processed

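Groups and replicate numbers came from the sample labels. The authors deposited 1 linear intensity for each probe set of each array. Its 2% trimmed mean was 500 everywhere, so arrays had been scaled. The submitters' processing notes list GCOS for wild type arrays, and for null arrays the software is not given in the sources used here. Nothing from wild type replicate 1 was used here.

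The deposited intensities were turned into log2(signal + 16) and, without 64 controls, quantile normalised (limma 3.58.1, R 4.3.3). Each of 18193 genes was read from its brightest probe set, the 7277 dimmest were left out, and lmFit and eBayes with a variance trend (two-sided) gave p-values for 10916. Adjusted p-values of genes are from this fit, those of single probe sets from the same fit with no filter. Replicates were pools, so the tests use the spread among pools, and precision is limited by having 3 and 2 of them. Arrays of a group correlated at 0.960 to 0.974 over probe sets, and arrays of different groups at 0.905 to 0.931. No pair of arrays was a copy.

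Identifiers of all 156 probe sets were found in a RefSeq table of GRCm38.p6. The members and lists were chosen with earlier results of these data known. Values by array are given for the 5 highest and 5 lowest fold changes of each subunit, for Mrps22, Mrps7 and Mrpl50, and for probe sets that disagree. Outside this rule they are also given for Mrpl44, Mrpl57, Mrpl42, Mrpl35, Mrpl33 and Mrps17 and for some probe sets that agree. Any called member may be named, and of other lists up to 3 with the smallest p plus 1 that goes the other way. Alternatives covered scaling, the added constant, the filter, the probe set, the variance model, the threshold, a replicate block and each array left out. The steps were tested on simulated data. Figures used matplotlib 3.10.9 in Python 3.11.15.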

Additional observations from a re-analysis of the deposited data

How the results depend on the processing

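Of the 28 calls 11 held in all 15 settings that change the fit (Mrpl16, Mrpl24, Mrpl32, Mrpl35, Mrpl42, Mrpl44, Mrpl55, Mrpl57, Mrps17, Mrps22 and Mrps31), and 13 held with each array left out in turn. With arrays centred on their medians 1720 of all genes were higher and 31.3% of all genes were lower. There 30 large and 22 small subunit genes were lower, 0 large subunit genes were higher, and the medians were -0.59 and -0.54. With the deposited scaling the large subunit median was -0.35. With every probe set on its own 8731 of the 20967 left after the filter were called, 4287 higher (20.4%) and 4444 lower (21.2%). Of 81 large subunit probe sets 4 were higher and 27 lower. Of 45 small subunit ones 0 were higher and 14 lower, with a small subunit median of -0.32. At a threshold of 0.01, 1831 of the 10916 genes were higher and 1679 lower. There 12 of 47 large and 3 of 29 small subunit genes were lower, and 1 large subunit gene was higher. Averaging the probe sets of a gene gave a large subunit median of -0.23, cost 7 members their call and turned Mrps10 to 0.22 (adjusted p = 0.606), a gene whose other probe set is dim. With averaging 13 large and 9 small subunit genes were lower, against 21.1% of all genes. With the replicate number as a block 3 large subunit genes were higher, and 23 large and 13 small subunit genes were lower. Of all genes 28.1% were then higher and 23.7% lower, and the large subunit median was -0.39. Null replicate 1 has no partner, so that fit amounts to leaving it out. The numbers were not shown to pair the arrays, with correlations of deviations of -0.13 (replicate 2) and 0.10 (replicate 3) over only 2 pairs. With 1 array left out, all calls ranged from 3389 to 5538, higher calls from 1846 to 2916, lower calls from 1543 to 2622, large subunit calls from 1 to 3 higher and 9 to 23 lower, small subunit calls from 0 to 1 higher and 6 to 13 lower, and the medians from -0.39 to -0.23 and from -0.26 to -0.21. The lowest large subunit count, 9, came without wild type replicate 3. With that replicate out, the other wild type pool is assumed to vary like the null pools.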
